A study of Mus musculus with 96 samples.

Results

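The WNK and SPAK kinase pathway was described with 9 genes, chosen by symbol: the 4 WNK kinases Wnk1, Wnk2, Wnk3 and Wnk4, the kinases they activate, Stk39 (SPAK) and Oxsr1 (OSR1), the substrate receptors Klhl3 and Klhl2, and the ubiquitin ligase scaffold Cul3. They are 9 of the 54532 genes in the deposited table, each with 1 row, and 8 of them reached 1 TPM (a transcript level scaled for gene length and for the sample's total) in at least 3 mice and were tested. Wnk3 did not, and its values are given as levels only. The study measured RNA by ultra-low input sequencing in 14 tubule segments and the glomerulus, microdissected by hand from mouse kidneys. All animals were male C57BL/6 mice of 6 to 8 weeks on normal chow, with no transgene and no treatment, and the groups are defined by segment. The 93 samples came from 53 mice, with up to 3 pieces of a segment per mouse, which were averaged.

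The groups follow the course of the urine. There were 3 mice for the glomerulus, for PTS1 (the first part of the proximal convoluted tubule), for PTS3 (the last proximal straight part, in the outer stripe), for DTL1 (descending limb of short loops), DTL2 and DTL3 (descending limb of long loops in the outer and inner medulla), for MTAL (medullary thick ascending limb), DCT (distal convoluted tubule), CNT (connecting tubule) and IMCD (inner medullary collecting duct). There were 4 mice for ATL (thin ascending limb) and OMCD (outer medullary collecting duct), and 5 for PTS2 (proximal straight tubule of the medullary rays), CTAL (cortical thick ascending limb) and CCD (cortical collecting duct). Read depth cannot be recovered from TPM, so no counting interval stands beside a value.

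WNK kinases respond to chloride and potassium and phosphorylate SPAK and OSR1, which in turn phosphorylate and activate the sodium chloride cotransporter of the distal convoluted tubule (Slc12a3, the thiazide target) and the sodium potassium chloride cotransporter of the thick limb (Slc12a1, the loop diuretic target). KLHL3, bound to the scaffold CUL3, marks WNK kinases for degradation. Inherited changes in WNK1, WNK4, KLHL3 and CUL3 cause familial hyperkalaemic hypertension, in which sodium chloride uptake in the distal convoluted tubule is too high. The Wnk1 gene also makes a kidney-specific short form, from an internal promoter, that lacks most of the kinase domain and is known from the distal convoluted tubule. The values here are sums over each gene, so the short and long forms of Wnk1, and the forms of Stk39, cannot be told apart.

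The DCT stood out for the 3 genes Wnk1, Wnk4 and Klhl3. Wnk1 reached 1012 ± 126 TPM there (SD, n = 3 mice), 7.78 times its mean in the CTAL and 12.1 times its mean in the CNT. Klhl3 reached 26.5 ± 2.98 TPM in the DCT and did not exceed a group mean of 2.46 TPM anywhere else. Wnk4, at 500 ± 8.94 TPM in the DCT, was shared with the thick limb. Stk39 instead had its highest means in the OMCD and CCD, while the group means of Oxsr1 spanned 6.82-fold and those of Cul3 3.04-fold.

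**Figure D1:**
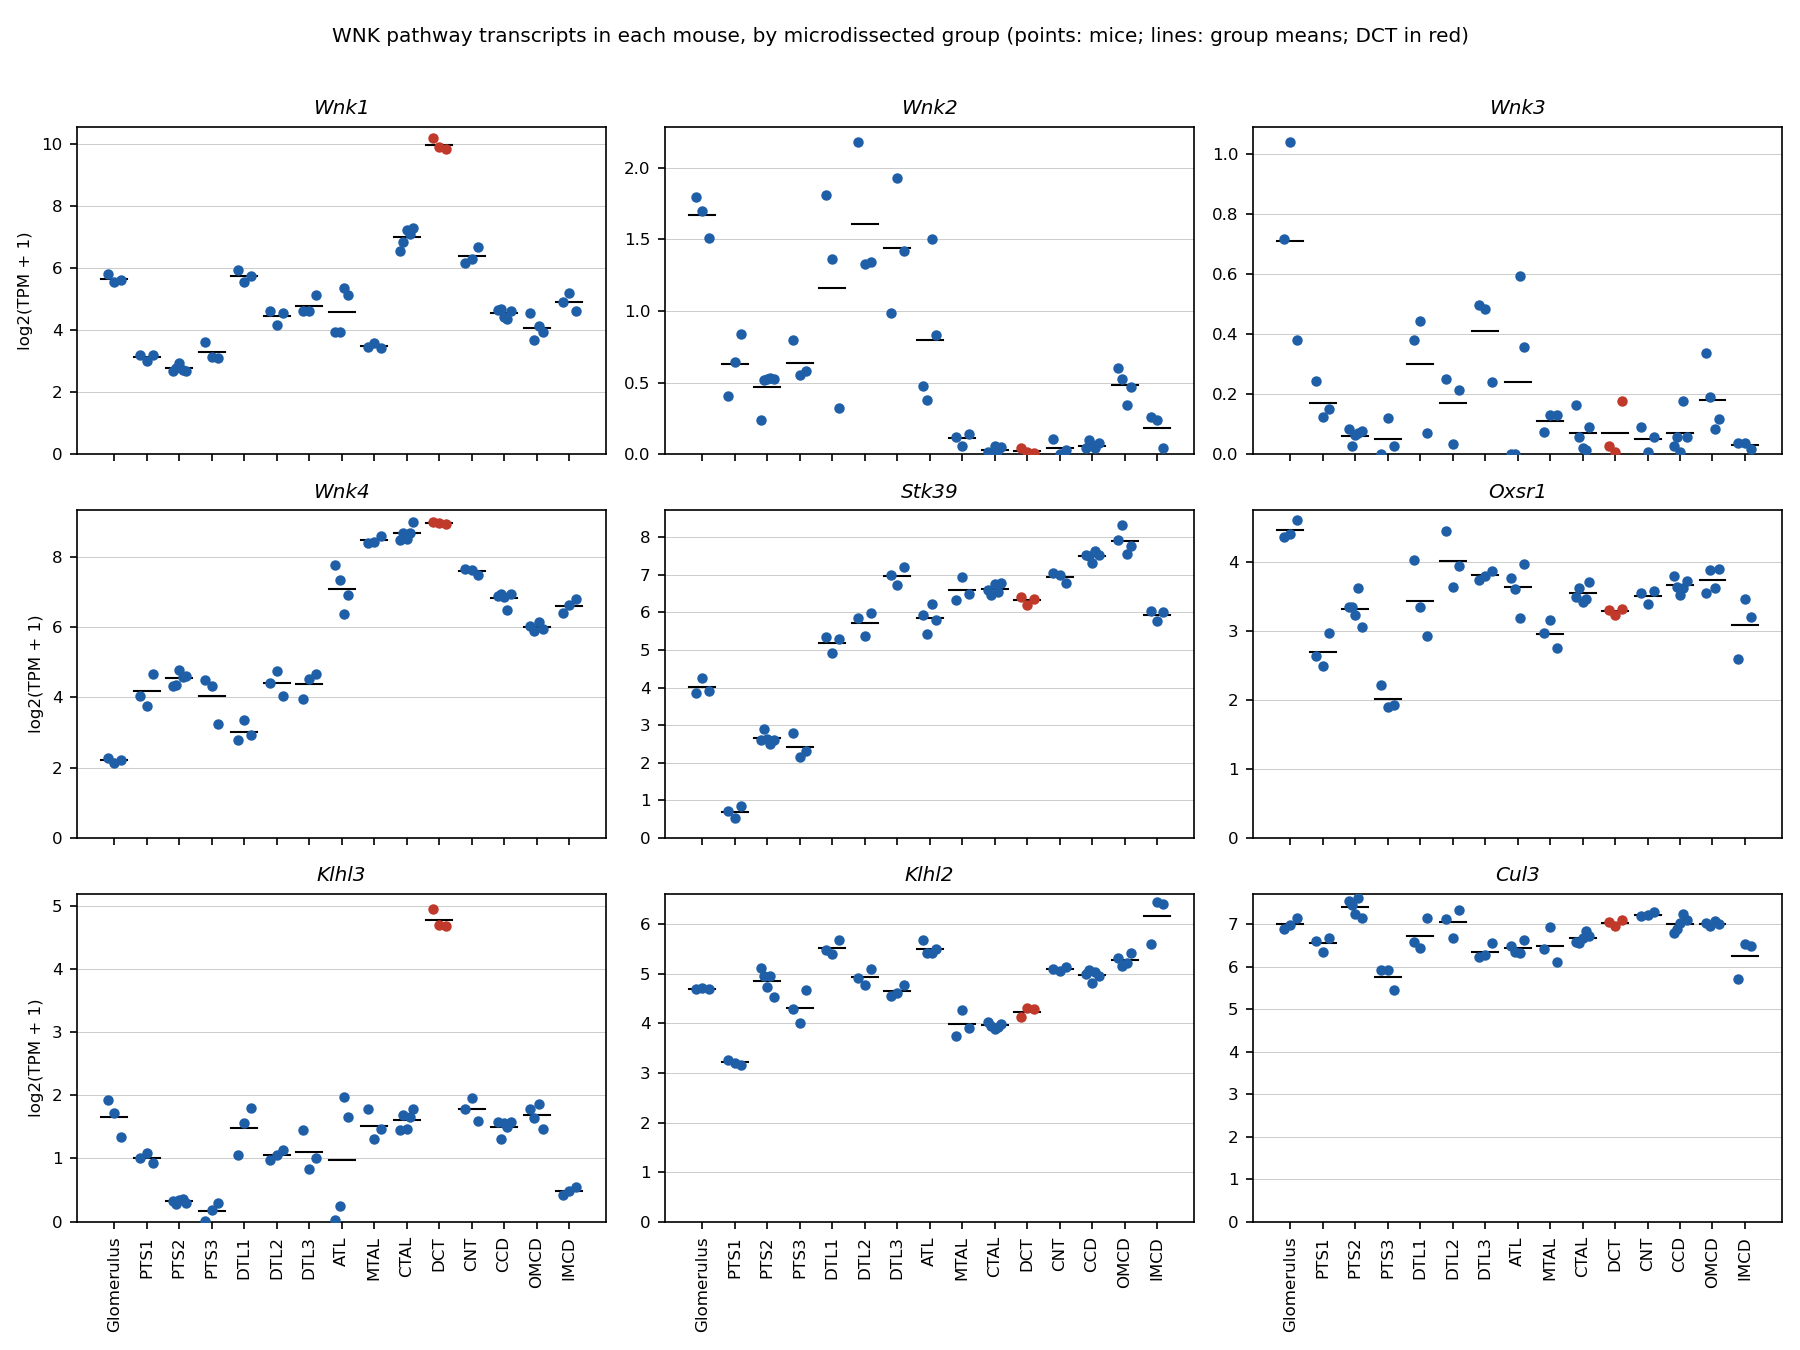
Level of each of the 9 genes as log2(TPM + 1) in every mouse (points) of the 15 microdissected groups, in the order of the nephron, with the group mean as a black line and the DCT in red. The 3 DCT mice lie above every other mouse for Wnk1 and Klhl3, Wnk4 is high from the MTAL to the DCT, and Stk39 is lowest in PTS1 and highest in the OMCD. The vertical scale differs between panels.

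The position and promoter of the 3 genes with their highest mean in the DCT are given, because the results turn on them; for Wnk4 that mean was not set apart from the CTAL. Coordinates and sequences are those of RefSeq on mouse build GRCm38.p6, from 250 bases before to 50 bases after the gene's start, written 5′ to 3′ on the gene's own strand, with every CG in capitals. Wnk1 lies on the minus strand (chr6:120038606-120038905), Wnk4 on the plus strand (chr11:101260317-101260616) and Klhl3 on the minus strand (chr13:58113598-58113897).
Wnk1: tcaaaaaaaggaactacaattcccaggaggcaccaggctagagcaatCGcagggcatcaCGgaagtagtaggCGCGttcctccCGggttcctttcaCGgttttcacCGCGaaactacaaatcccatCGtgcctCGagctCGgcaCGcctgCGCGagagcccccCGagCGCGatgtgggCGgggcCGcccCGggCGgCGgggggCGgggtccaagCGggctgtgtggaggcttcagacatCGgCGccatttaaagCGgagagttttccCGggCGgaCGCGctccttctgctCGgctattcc
Wnk4: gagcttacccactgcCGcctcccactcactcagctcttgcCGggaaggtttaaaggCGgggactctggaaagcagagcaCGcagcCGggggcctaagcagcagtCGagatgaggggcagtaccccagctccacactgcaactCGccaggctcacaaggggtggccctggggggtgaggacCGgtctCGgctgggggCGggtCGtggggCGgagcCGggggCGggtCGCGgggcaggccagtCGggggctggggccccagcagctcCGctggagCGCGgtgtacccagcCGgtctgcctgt
Klhl3: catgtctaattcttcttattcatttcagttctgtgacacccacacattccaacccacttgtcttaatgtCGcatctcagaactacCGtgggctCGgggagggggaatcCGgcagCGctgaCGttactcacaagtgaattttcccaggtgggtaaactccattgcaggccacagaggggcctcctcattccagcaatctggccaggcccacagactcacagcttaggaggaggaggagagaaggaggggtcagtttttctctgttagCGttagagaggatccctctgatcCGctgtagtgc
The Wnk1 window holds 32 CG, more than 90.5% of the 32851 mouse promoters of this length, the Wnk4 window 21 and the Klhl3 window 8, where the median promoter holds 7. A CG-rich start of this kind is common in genes that many tissues use. Both strands were searched for TCAAGGTCA (the extended half-site of Esrrb and related receptors, in 0.423% of promoters), TATAAA (13.6%) and CCAAT (37.4%). None of these letters occurred in the 3 windows, which says only that they are not in these bases. The Wnk1 window is the upstream one: in the GENCODE M21 annotation 6 of the 26 Wnk1 transcripts begin within 1500 bases of the gene's start and the other 20 begin elsewhere.

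Wnk1, the founding kinase of the family, measured 1157, 958 and 922 TPM in the 3 DCT mice. In the CTAL, the segment before it, the 5 mice gave 94.2, 115, 149, 137 and 155 TPM. In the CNT, the segment after it, the 3 mice gave 71.1, 78.0 and 103 TPM. No CTAL or CNT mouse came near a DCT mouse, and the 3 DCT mice were above every other mouse. The difference was 2.96 ± 0.22 (SE) from CTAL to DCT on the log2(TPM + 1) scale (limma, adjusted p = 7.02e-15), and the level fell by 3.58 ± 0.24 from DCT to CNT (adjusted p = 1.23e-15).

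Upstream and downstream of that peak Wnk1 moved in further steps. The MTAL mice held only 10.1, 11.2 and 9.82 TPM, so the thick limb was split: the CTAL mean of 130 ± 25.3 TPM was 12.6 times the MTAL mean, a rise of 3.52 ± 0.22 (limma, adjusted p = 1.72e-16). The CCD mice held 24.3, 24.5, 20.3, 19.7 and 23.6 TPM, lower than the CNT by 1.84 on the log2 scale (SE 0.22, adjusted p = 1.15e-07). The proximal tubule was low throughout: PTS2 had a mean of 5.83 ± 0.541 TPM and PTS3, its highest part, 8.97 ± 2.08 TPM. Ordered by level, Wnk1 ran from DCT to CTAL to CNT with each step past the adjusted p of 0.05, while DTL1 and the glomerulus, which come next at 53.7 ± 6.13 and 50.3 ± 4.57 TPM, did not differ beyond their spread (difference 0.08, adjusted p = 0.832). From the IMCD down to the OMCD, in the 6 groups between 16.4 and 29.5 TPM, no step between neighbours in level passed, while the IMCD was above the OMCD by 0.82 (adjusted p = 0.00431).

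Markers of the neighbouring segments were measured beside these values. In the CTAL mice the 3 DCT markers Slc12a3, Pvalb and Trpm6 summed to between 0.350 and 0.630 TPM, and Slc12a3 stood at 0.00538% of its DCT mean, whereas Wnk1 stood at 12.8% of its DCT mean. In the CNT Slc12a3 was at 0.00585% and Wnk1 at 8.29% of the DCT mean. In the DCT mice themselves Slc12a1 was at 0.503% and Umod, a thick limb protein, at 4.89% of their CTAL means, and the connecting tubule markers Calb1, Slc8a1 and Trpv5 summed to between 5381 and 9224 TPM, above the 1235 to 1959 TPM of the CNT. The intercalated cell markers Slc4a1, Slc26a4, Atp6v1g3 and Foxi1 summed to 636 to 694 TPM in the DCT, 1.04 to 4.25 TPM in the CTAL and 4307 to 4987 TPM in the CNT. The principal cell markers Aqp2, Aqp3, Avpr2 and Scnn1b summed to 514 to 605 TPM in the DCT, 48.2 to 89.2 TPM in the CTAL and 8624 to 12170 TPM in the CNT. The part of these markers in the DCT levels was not tested. As in all bulk samples, fewer cells of a type and less RNA per cell cannot be told apart.

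Wnk4, the kinase best known for control of the thiazide-sensitive cotransporter, was high over a longer stretch. The DCT mice held 510, 497 and 493 TPM, the CTAL mice 356, 407, 367, 405 and 508 TPM, and the MTAL mice 342, 348 and 390 TPM. The ranges of DCT and CTAL overlapped in 1 CTAL mouse, and the difference of 0.30 ± 0.22 did not pass (limma, adjusted p = 0.862). After the DCT Wnk4 fell by 1.38 ± 0.25 to 193 ± 13.7 TPM in the CNT (adjusted p = 6.07e-05). It continued at 113 ± 14.3 TPM in the CCD and 63.6 ± 5.49 TPM in the OMCD, steps of -0.77 (adjusted p = 0.0673) and -0.82 (adjusted p = 0.00273) that did not reach a log2 difference of 1.

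Wnk4 rose at the bend of the loop. The 3 DTL3 mice held 14.6, 22.0 and 24.5 TPM and the 4 ATL mice 218, 161, 82.3 and 119 TPM, with no overlap and a rise of 2.72 ± 0.23 (limma, adjusted p = 6.37e-13). A further rise of 1.38 ± 0.23 followed into the MTAL (adjusted p = 4.60e-06). ATL mice 4 and 6, the lower ones for Wnk4, also carried the most background transcripts, described with the thin limbs, and without them the ATL to MTAL step was 0.92 (adjusted p = 0.00324), short of the threshold of 1. The glomerulus had the lowest Wnk4 at 3.90, 3.75 and 3.85 TPM. An antisense gene, Gm11615, overlaps Wnk4 and was at 7.23 TPM in the DCT and 3.52 TPM in the CTAL; without strand information reads of the 2 genes cannot be told apart.

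Wnk2 and Wnk3, kinases studied mainly outside the kidney tubule, were at trace levels. Wnk2 had its highest group means in the glomerulus (2.25 ± 0.350 TPM) and DTL2 (2.23 ± 1.13 TPM) and stood at 0.0150 TPM in the DCT. Wnk3 reached 1.20 TPM in 1 glomerulus mouse and stayed below 1 TPM in every other mouse. The 4 groups with the most Wnk2 (glomerulus, DTL2, DTL3 and DTL1) also had the most background by group median: of 1979 odorant and vomeronasal receptor genes, which kidney tubules are not known to use widely, a median of 678 reached 1 TPM in glomerulus mice, 916 in DTL1, 520 in DTL3, 329 in DTL2, 317 in ATL and 112 in OMCD mice, against 1 in DCT, CCD and MTAL mice and 3 in CTAL and CNT mice. Taken singly, ATL mice 4 and 6 had more than every DTL2 and DTL3 mouse. Those 2 mice held 0.510 and 0.280 TPM of Wnk3, where ATL mice 2 and 3, with 33 and 20 such genes, held 0. They also held more Wnk2, 1.82 and 0.780 TPM against at most 0.390 TPM. Mouse 4 had more of both than mouse 6, but fewer receptor genes (601 against 703). Below these 4 groups the order of Wnk2 was not the same. PTS3 and PTS1, with medians of 4 and 27 such genes, had higher means (0.572 and 0.565 TPM) than the OMCD (0.404 TPM). For Wnk3 the OMCD mean (0.140 TPM) was above that of DTL2 (0.128 TPM). The part of this background in the Wnk2 and Wnk3 values was not tested. Wnk2 reached 1 TPM in 11 mice, all of the glomerulus, DTL1, DTL2, DTL3 or ATL, and entered the tests only through them. Its tests of these groups against others are tied to that filter, and no difference is read from them.

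Stk39 encodes SPAK, the kinase that carries the WNK signal to the cotransporters. Its peak was not in the DCT: the 4 OMCD mice held 243, 320, 188 and 220 TPM, the 5 CCD mice 184, 179, 159, 197 and 186 TPM, and the 3 DCT mice 83.9, 72.6 and 80.8 TPM. OMCD and CCD ranges overlapped, and both lay wholly above the DCT. The CTAL, where 5 mice held between 87.9 and 108 TPM, lay wholly above the DCT, but the difference of -0.31 ± 0.17 for DCT minus CTAL did not pass (limma, adjusted p = 0.442). From DCT to CNT the difference was 0.62 ± 0.19 (adjusted p = 0.0200), under the threshold of 1. Beyond the OMCD it fell by 1.96 ± 0.17 to 60.7 ± 5.98 TPM in the IMCD (adjusted p = 7.27e-13).

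Stk39 was lowest in the first part of the proximal tubule. The PTS1 mice held 0.645, 0.440 and 0.790 TPM, which puts the OMCD mean 388 times above the PTS1 mean. PTS2 held 5.37 ± 0.701 TPM, a rise of 1.95 ± 0.17 over PTS1 (limma, adjusted p = 2.56e-13), and PTS3 held 4.58 ± 1.35 TPM. The descending limb of long loops had 53.3 ± 11.2 TPM in DTL2 and more than that, 126 ± 21.2 TPM, in DTL3 (difference 1.24 ± 0.19, adjusted p = 1.41e-06). The difference between DTL3 and CNT did not pass (0.04, adjusted p = 0.884), and the run of CNT, CTAL, MTAL, DCT, IMCD, ATL and DTL2, between 53.3 and 122 TPM, held no step between neighbours in level that passed.

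Oxsr1 encodes OSR1, the close relative of SPAK. Its group means stayed between 3.09 ± 0.564 TPM in PTS3 and 21.1 ± 2.13 TPM in the glomerulus, a 6.82-fold span against 388-fold for Stk39. The 3 DCT mice held 8.88, 8.41 and 8.95 TPM and the 5 CTAL mice 10.2, 11.3, 9.72, 10.0 and 12.2 TPM. These ranges did not overlap, but the difference of -0.26 ± 0.19 did not pass (limma, adjusted p = 0.842). Of the 14 steps in its order of levels, 1 passed, that from PTS1 down to PTS3.

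Klhl3, the receptor that delivers WNK kinases to the ligase, was the other gene set apart in the DCT. The 3 DCT mice held 29.9, 24.9 and 24.6 TPM. The 5 CTAL mice held 1.74, 2.21, 1.77, 2.17 and 2.46 TPM, and the 3 CNT mice 2.45, 2.90 and 2.04 TPM. The DCT mean was 12.8 times the CTAL mean and 10.8 times the CNT mean, and no mouse of another group exceeded 2.93 TPM. On the log2(TPM + 1) scale, which understates the change of low genes, the difference was 3.16 ± 0.25 from CTAL to DCT (limma, adjusted p = 6.79e-14) and Klhl3 fell by 2.99 ± 0.28 from DCT to CNT (adjusted p = 1.80e-11). Among the other 14 groups no step between neighbours in level passed.

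Klhl2, a relative of Klhl3 that also binds WNK kinases, followed another course. It was highest in the IMCD, where the mice held 49.3, 87.8 and 84.7 TPM, and lowest in PTS1, where they held 8.66, 8.26 and 7.99 TPM. The thick limb and DCT were low, at 12.5, 18.4 and 14.0 TPM in the MTAL mice, 14.5 ± 0.598 TPM in the CTAL and 18.0 ± 1.33 TPM in the DCT. The DCT to CNT step of 0.85 ± 0.16 had an adjusted p of 9.06e-05 (limma) but not a log2 difference of 1. Cul3, the scaffold shared by many KLHL receptors, was present everywhere, from 55.7 ± 10.9 TPM in PTS3 to 169 ± 22.2 TPM in PTS2, a 3.04-fold span. The DCT mice, at 131, 123 and 138 TPM, overlapped those of the CCD (111 to 150 TPM), the OMCD (124 to 134 TPM) and the glomerulus (118 to 141 TPM).

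Every tested gene of the pathway differed among the 15 groups (moderated F-test of limma, adjusted p between 5.98e-36 for Stk39 and 1.32e-10 for Wnk2). The same test called 93.9% of the 33793 genes tested, so this count of 8 of 8 does not set the pathway apart. Wnk2 entered the tests only through the glomerulus and thin limb mice in which it was high, so nothing is read from its F-test. A stricter question was whether a gene was higher in 1 group than in each of the other 14, by a log2 difference of at least 1. For the DCT 71 genes met this rule (0.210% of those tested), and Wnk1 (margin 2.96 ± 0.22, adjusted p = 6.46e-14) and Klhl3 (margin 2.99 ± 0.28, adjusted p = 1.17e-10) were 2 of them. For any of the 15 groups the share was 8.80% of genes. Wnk4 (margin 0.30 over the CTAL) and Stk39 (margin 0.40 of OMCD over CCD) did not meet it, each with an adjusted p of 1, and Klhl2 in the IMCD had a margin of 0.63 (adjusted p = 0.0202), too small for the rule.

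Along the nephron, 30 of the 112 combinations of tested gene and neighbouring contrast passed both thresholds (adjusted p under 0.05 and a log2 difference of at least 1), or 26.8%, where 17.5% of all such combinations did. Wnk1 accounted for 8, Stk39 for 6, Wnk4 and Klhl3 for 4 each, Oxsr1 and Klhl2 for 3 each, Cul3 for 2 and Wnk2 for 0 (limma; 5 of its 14 steps had an unadjusted p under 0.05, and 5 were called with a pseudocount of 0.1 TPM in place of 1). In the distal steps the pathway moved as follows. From MTAL to CTAL Wnk1 alone rose among the 8, where 2.57% of all genes rose by the same thresholds. Oxsr1 was higher in the CTAL by 0.59 (adjusted p = 0.0493), under the threshold of 1. From CTAL to DCT Wnk1 and Klhl3 rose, 2 of 8, as did 2.01% of all genes. From DCT to CNT Wnk1, Wnk4 and Klhl3 fell, 3 of 8, as did 1.52% of all genes. From CNT to CCD Wnk1 fell, as did 0.438% of all genes.

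The collecting duct has 2 steps. From CCD to OMCD none of the 8 passed both thresholds in limma, where 12.1% of genes did; 5 of the 8 had an unadjusted p under 0.05, and Wnk4 (-0.82) and Stk39 (0.40) had an adjusted p under 0.05 with differences below 1. With a pseudocount of 0.1 TPM Wnk2, at trace level, was called in this step (1.76, adjusted p = 0.00118), in which the receptor genes at 1 TPM or more went from a median of 1 to 112 per mouse. From OMCD to IMCD Stk39 fell by 1.96 and Klhl3 fell by 1.21 ± 0.26 (adjusted p = 0.000265), where 15.2% of all genes fell. The Klhl3 call was lost with a pseudocount of 5 TPM (-0.42) and under quantile normalization (-0.43). Klhl2 (0.88, adjusted p = 5.85e-06) and Wnk1 (0.82, adjusted p = 0.00431) were above their OMCD levels by less than 1. Both were called higher under median ratio rescaling (1.13 and 1.07) and quantile normalization (1.23 and 1.35), and Klhl2 also without IMCD mouse 1 (1.15). Wnk4 (0.60, adjusted p = 0.0452) was likewise above its OMCD level, and Cul3 (-0.77, adjusted p = 0.000387) and Oxsr1 (-0.65, adjusted p = 0.00900) were below theirs, by less than 1. In this step the 4 intercalated cell markers summed to between 2118 and 2866 TPM in the OMCD and between 0.333 and 4.55 TPM in the IMCD, and the receptor genes had medians of 112 and 16; the part of both in these differences was not tested. The median over all genes was 0.30 for the first of these steps and -0.32 for the second. Klhl3 went from 2.25 ± 0.380 TPM to 0.412 ± 0.0552 TPM, low on either side.

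**Figure D2:**
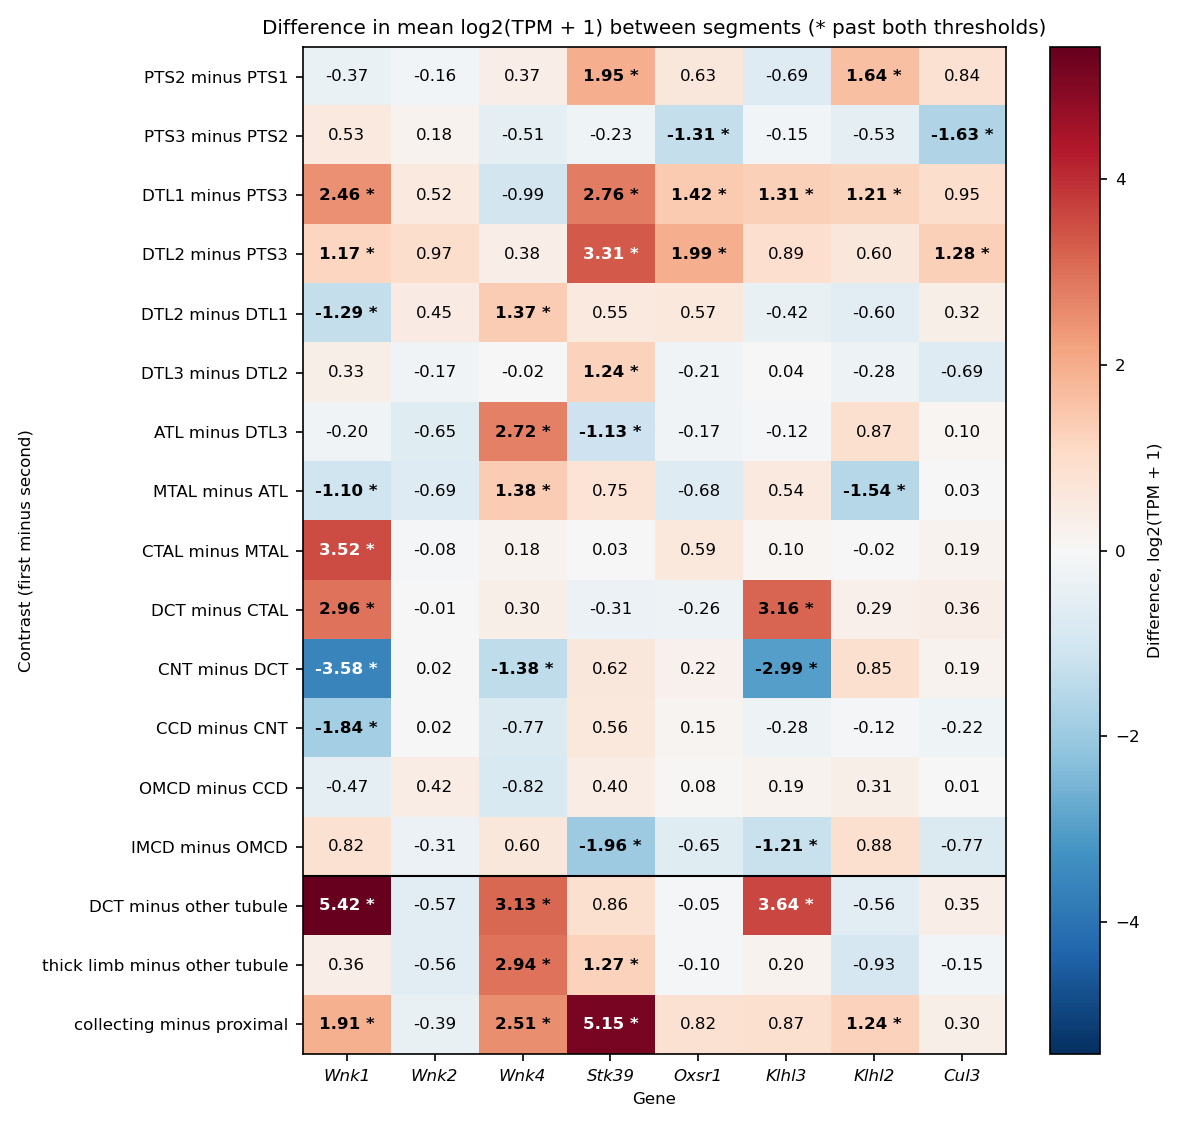
Difference in mean log2(TPM + 1) between neighbouring segments (upper 14 rows) and between regions (lower 3 rows) for the 8 tested genes, with red for higher in the segment named first and an asterisk where both thresholds were passed. The blocks for Wnk1 and Klhl3 change from red to blue on either side of the DCT, at 2.96 and -3.58 for Wnk1 and at 3.16 and -2.99 for Klhl3, while the OMCD minus CCD line has no asterisk.

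Within the proximal tubule 4 of the 8 passed both thresholds. From PTS1 to PTS2 Stk39 and Klhl2 rose, as did 5.10% of all genes, Klhl2 by 1.64 ± 0.14 (limma, adjusted p = 5.37e-13). From PTS2 to PTS3 Oxsr1 fell by 1.31 ± 0.19 (adjusted p = 9.62e-07) and Cul3 fell by 1.63 ± 0.16 (adjusted p = 2.43e-10), where 3.94% of all genes fell. With a pseudocount of 5 TPM the Stk39 step (0.87) and the Oxsr1 step (-0.80) were short of 1, as was the Oxsr1 step under quantile normalization (-0.94). Klhl3 from PTS1 to PTS2 (-0.69, adjusted p = 0.0466) was called with a pseudocount of 0.1 TPM (-1.68). Cul3 (0.84, adjusted p = 8.39e-05) and Oxsr1 (0.63, adjusted p = 0.0127) were higher in PTS2 than in PTS1, and Klhl2 (-0.53, adjusted p = 0.00595) was lower in PTS3 than in PTS2, by less than 1. The 3 PTS3 mice, at 63.2, 60.8 and 43.2 TPM of Cul3, lay wholly below the PTS2 mice, which held 141 to 194 TPM.

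At the entry to the thin limbs the whole table shifted upward, by a median over all genes of 1.33 from PTS3 to DTL1 and of 0.71 from PTS3 to DTL2. From PTS3 to DTL1 5 of 8 rose (Wnk1, Stk39, Oxsr1, Klhl3 and Klhl2) where 61.8% of all genes rose, and the median of the 8 was 1.26, close to that shift. Wnk1 at 2.46 ± 0.24 and Stk39 at 2.76 ± 0.19 exceeded it, while Oxsr1 at 1.42, Klhl3 at 1.31 and Klhl2 at 1.21 were near it. Cul3, at 0.95, was called in 4 of the settings without 1 mouse (1.02 to 1.10). The 5 endothelial markers summed to at most 46.8 TPM in PTS3, to 804 to 883 TPM in DTL1 and 305 to 486 TPM in DTL2, and the 3 thick limb markers to 0.785 to 1.86, 81.0 to 395 and 19.2 to 24.6 TPM. Their part in these rises was not tested. From PTS3 to DTL2 Wnk1 (1.17), Stk39 (3.31), Oxsr1 (1.99) and Cul3 (1.28) rose, as did 36.2% of all genes. Under median ratio rescaling Oxsr1 (0.50), Klhl3 (0.99) and Klhl2 (0.13) no longer passed for DTL1, nor Wnk1 (0.22) and Cul3 (0.26) for DTL2. Under quantile normalization the median over all genes was 0.18 for DTL1 and 0.16 for DTL2. With this scaling the values of Oxsr1 (-0.97) and Klhl3 (-0.56) for DTL1 and of Wnk1 for DTL2 (-0.07) turned negative. Klhl2 for DTL1 (0.02) and Oxsr1 (0.61) and Cul3 (0.74) for DTL2 no longer passed. A pseudocount of 5 TPM left Oxsr1 (0.89) and Klhl3 (0.41) for DTL1 and Wnk1 (0.91) for DTL2 short of 1. Wnk4, at -0.99 (adjusted p = 0.000438) from PTS3 to DTL1, was called lower under median ratio rescaling (-2.02), quantile normalization (-3.38) and a pseudocount of 0.1 TPM (-1.08), and without PTS3 mouse 3 (-1.39) or DTL1 mouse 3 (-1.16), and Wnk2 was called lower in this step under quantile normalization (-1.20). From PTS3 to DTL2 Wnk2 (0.97) was called with a pseudocount of 0.1 TPM (1.68) and in 3 of the settings without 1 mouse (1.05 to 1.11), and Klhl3 (0.89) with a pseudocount of 0.1 TPM (2.54). Wnk2 passed the filter only through glomerulus and thin limb mice, so no difference is read from its calls in these steps. From DTL1 to DTL2 Wnk1 fell by 1.29 ± 0.24 and Wnk4 rose by 1.37 ± 0.25, with 28.2% of all genes called in either direction and a median over all genes of -0.54, and Oxsr1 (0.57) was called higher under quantile normalization (1.59).

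From DTL2 to DTL3 Stk39 alone rose among the 8, where 6.08% of all genes rose, and Cul3 was lower by less than 1 (-0.69, adjusted p = 0.00494). From DTL3 to ATL Wnk4 rose and Stk39 fell by 1.13 ± 0.17 (limma, adjusted p = 1.35e-06), with 14.6% called. The Stk39 step was 0.99 in size, short of 1, without ATL mouse 3 (-0.99, adjusted p = 2.24e-05), and was also short of 1 under median ratio rescaling (-0.83) and quantile normalization (-0.99). Klhl2 in this step (0.87, adjusted p = 1.08e-05) was called under median ratio rescaling (1.15) and quantile normalization (1.23), and Wnk2 (-0.65) without ATL mice 4 and 6 (-1.02) and with a pseudocount of 0.1 TPM (-1.22). From ATL to MTAL Wnk4 rose, Klhl2 fell by 1.54 ± 0.15 (adjusted p = 9.12e-12) and Wnk1 fell by 1.10 ± 0.23 (adjusted p = 0.000121), with 28.1% called. The median over all genes was -0.28 from DTL3 to ATL and -0.48 from ATL to MTAL. The ATL mice were uneven for Wnk1, at 14.4 and 14.3 TPM in mice 2 and 3 and 39.8 and 34.2 TPM in mice 4 and 6, and the same mice held 33, 20, 601 and 703 of the odorant and vomeronasal receptor genes at 1 TPM or more. Without mice 4 and 6 the Wnk1 step was -0.45 (adjusted p = 0.115). Leaving out mouse 4 alone gave -0.85 and mouse 6 alone -0.92, a replicate block gave -0.88, a pseudocount of 5 TPM -0.90, median ratio rescaling -0.82 and quantile normalization -0.67, each short of 1. Klhl3 was uneven in the same mice, at 0.0200 and 0.190 TPM in mice 2 and 3 and 2.93 and 2.15 TPM in mice 4 and 6. Its ATL to MTAL difference of 0.54 (adjusted p = 0.0858) was called without mice 4 and 6 (1.38, adjusted p = 1.05e-07), under quantile normalization (1.37) and with a pseudocount of 0.1 TPM (1.48). Stk39 in this step (0.75) was called under median ratio rescaling (1.04), and Wnk2 (-0.69) with a pseudocount of 0.1 TPM (-2.19). The Wnk2 calls in the 2 steps at the ATL are tied to the filter it passed through thin limb and glomerulus mice, and no difference is read from them.

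Region by region, the DCT was compared with the mean of the other 13 tubule segments. Wnk1 (5.42 ± 0.18, limma, adjusted p = 1.02e-27), Klhl3 (3.64 ± 0.20, adjusted p = 3.68e-19) and Wnk4 (3.13 ± 0.18, adjusted p = 1.38e-18) were higher, 3 of 8, where 3.41% of all genes were higher. The median over the 8 was 0.60 and over all genes -0.30. Stk39 was higher by 0.86 ± 0.14 (adjusted p = 1.86e-06), under the threshold of 1, Oxsr1 differed by -0.05 and Cul3 by 0.35. Klhl2 (-0.56, adjusted p = 0.000181) was lower by less than 1. Wnk2 differed by -0.57 (adjusted p = 0.0152), but it entered the tests only through glomerulus and thin limb mice, the groups with the most background. No difference is read from it.

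In the thick limb, taken as MTAL and CTAL together against the mean of the other 12 tubule segments, Wnk4 (2.94 ± 0.12, limma, adjusted p = 1.91e-24) and Stk39 (1.27 ± 0.09, adjusted p = 3.52e-16) were higher, 2 of 8, where 3.37% of all genes were higher. The Stk39 means of MTAL (97.3 TPM) and CTAL (98.4 TPM) were below those of OMCD (243), CCD (181), DTL3 (126) and CNT (122). They were above those of the remaining segments compared. With a pseudocount of 5 TPM the Stk39 call was lost. Klhl2 (-0.93, adjusted p = 5.88e-14) was lower by less than 1, and was called lower without MTAL mouse 2 (-1.01). Wnk2 differed by -0.56 (adjusted p = 0.000150), but it entered the tests only through glomerulus and thin limb mice, the groups with the most background. No difference is read from it. The median over all genes was -0.29. Wnk1 differed by only 0.36 there, an average over 2 segments that differ 12.6-fold. In the collecting system (CNT, CCD, OMCD and IMCD) against the 3 proximal segments, Stk39 was higher by 5.15 ± 0.09 (adjusted p = 3.85e-39), Wnk4 by 2.51 ± 0.12, Wnk1 by 1.91 ± 0.12 and Klhl2 by 1.24 ± 0.08. These were 4 of 8, where 18.8% of all genes were higher, and the medians were 1.06 over the 8 and 0.20 over all genes. Wnk1 (0.90) and Klhl2 (0.43) were no longer called under quantile normalization, nor Klhl2 (0.44) under median ratio rescaling, and Klhl3 (0.87) and Wnk2 (-0.39) were called with a pseudocount of 0.1 TPM (1.84 and -1.49).

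Because TPM are per length, the levels of related genes can be set side by side within each mouse. Of the 2 main WNK kinases, Wnk4 was above Wnk1 in every mouse of 10 groups, and Wnk1 was above Wnk4 in every mouse of 4 groups (glomerulus, DTL1, DTL3 and DCT). DTL2 was mixed. In the MTAL Wnk4 made up 97.2% ± 0.337 of the sum of both, in the CTAL 75.9% ± 3.12, in the DCT 33.2% ± 2.27 and in the CNT 69.7% ± 5.65. The DCT was thus the only group beyond the loop of Henle in which Wnk1 exceeded Wnk4. The Wnk1 levels sum its short and long forms, which cannot be told apart. These shares are therefore not shares of the long form with its kinase domain.

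The mean log2 ratio of Wnk4 to Wnk1, each with 1 TPM added, was 1.66 ± 0.24 in the CTAL, and the 3 DCT mice lay between -1.17 and -0.90. The difference of -2.66 had an exact two-sided permutation p of 0.0357, the smallest that 3 against 5 mice allow, and an adjusted p of 0.0459 over the 9 ratio tests made. From CTAL to CCD the ratio rose by 0.62 (exact permutation p = 0.00794, the smallest that 5 against 5 allow, adjusted p = 0.0143). PTS2, at 1.77 ± 0.15, differed from the CTAL by an amount within the spread (-0.12 for CTAL minus PTS2, exact permutation adjusted p = 0.464), although the levels of both genes were far lower in PTS2.

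Stk39 was above Oxsr1 in every mouse of 12 groups, and below it in every mouse of the glomerulus, PTS1 and PTS2. Its share of the sum was 10.0% ± 1.21 in PTS1, 59.3% ± 3.04 in PTS3 and 95.0% ± 0.946 in the OMCD. The log2 ratio was 3.76 higher in the CTAL than in PTS2 and 0.76 higher in the CCD than in the CTAL (exact permutation adjusted p = 0.0143 for each). DCT and CTAL differed by -0.05 (exact permutation adjusted p = 0.643), with ratios of 3.04 ± 0.07 and 3.09 ± 0.17.

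Klhl3 was above Klhl2 in all 3 DCT mice and in no mouse of the other 14 groups. Its share of the sum was 59.5% ± 4.38 in the DCT. The log2 ratio was 2.87 higher in the DCT than in the CTAL (exact permutation adjusted p = 0.0459), 2.20 higher in the CTAL than in PTS2 and 1.13 lower in the CCD than in the CTAL (-1.13, adjusted p = 0.0143 for both).

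**Figure D3:**
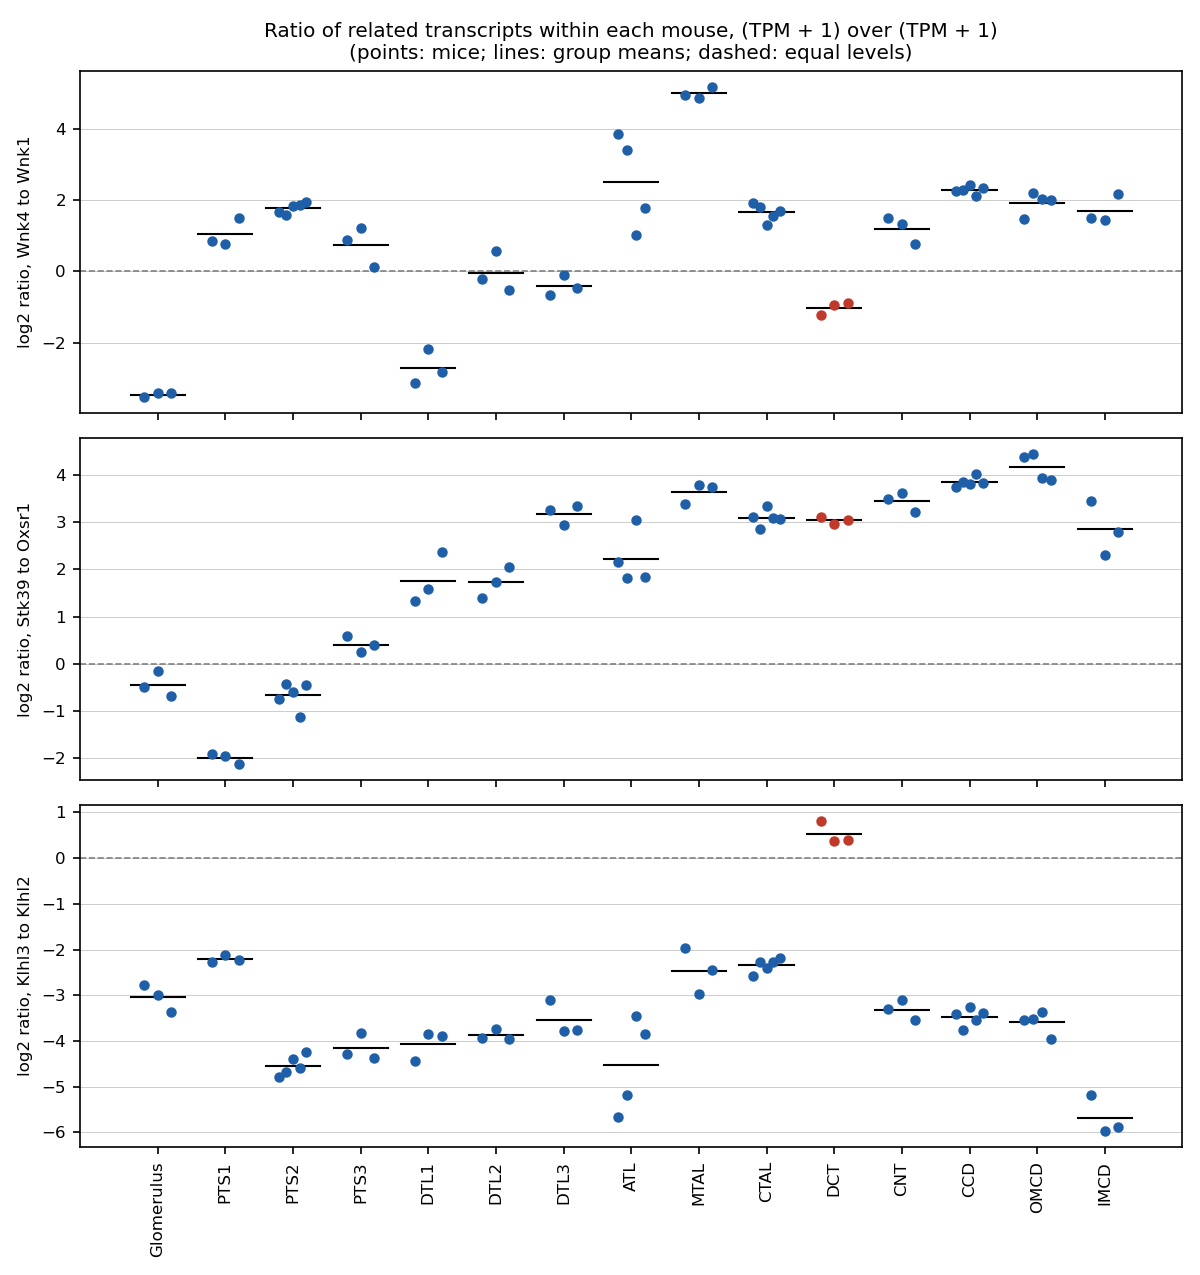
Log2 ratio of Wnk4 to Wnk1 (top), Stk39 to Oxsr1 (middle) and Klhl3 to Klhl2 (bottom) within each mouse, after adding 1 TPM to each gene, with group means as black lines and equal levels as a dashed line. In the DCT, in red, the Wnk4 to Wnk1 ratio drops to between -1.17 and -0.90 and the Klhl3 to Klhl2 ratio rises above 0, while the Stk39 to Oxsr1 ratio of 3.04 is close to that of the CTAL.

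The other genes of the pathway were followed in a list of 28 partners, all of them tested, with the share of all genes called in either direction beside each count. From CTAL to DCT 3 of 28 rose (Slc12a3, Hsd11b2 and Tsc22d2) and 3 fell (Slc12a1, Slc12a4 and Ppp1r1a), with a median of -0.07, where 4.35% of all genes were called. From DCT to CNT 4 rose (Hsd11b2, Sgk1, Nedd4l and Nr3c2) and 4 fell (Slc12a3, Ppp1r1a, Slc12a1 and Tsc22d2), where 5.22% of all genes were called. Against the mean of the other tubule segments the DCT had 8 of 28 higher and 1 lower (9.20% of all genes called) and the thick limb 6 higher and 5 lower (9.93%). The collecting system against the proximal tubule had 14 higher and 0 lower in limma (23.3%), with 1 lower at an unadjusted p under 0.05. With a pseudocount of 5 TPM Nr3c2 for the DCT (0.75) and Slc12a4 (0.71) and Kcnj10 (0.90) for the thick limb were short of 1. For the collecting system Cab39 (0.80), Tsc22d2 (0.86) and Tsc22d3 (0.67) were among those short of 1 under median ratio rescaling. Tsc22d2 was also short of 1 there under quantile normalization (0.53).

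Among the 7 adaptors and scaffolds, Tsc22d2, a protein that binds WNK kinases, was the one that changed at both borders of the DCT. It measured 68.0 ± 16.8 TPM in the DCT and 11.8 ± 2.36 TPM in the CTAL, a rise of 2.42 ± 0.26 (limma, adjusted p = 5.39e-10), and fell by 1.65 ± 0.29 from DCT to CNT (adjusted p = 3.47e-05). It also met the rule for the highest group in the DCT, with a margin of 1.27 (adjusted p = 0.0170). Cab39l, which like Cab39 (MO25) is a scaffold that activates SPAK and OSR1, was highest in the ATL at 866 ± 140 TPM, and Tsc22d3 was highest in the IMCD at 687 ± 247 TPM. None of the 5 genes of the ligase machinery (Rbx1, Nedd8, Ube2m, Cand1 and Cops5), which builds and recycles cullin ligases, passed both thresholds at either border of the DCT in limma, where 4.35% and 5.22% of all genes did (0 of 5 with an unadjusted p under 0.05 from CTAL to DCT, 2 of 5 from DCT to CNT). Cops5 was higher in the CNT than in the DCT by 0.73 (adjusted p = 6.48e-06), under the threshold of 1.

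Of the phosphatases, Ppp1ca and the calcineurin genes Ppp3ca and Ppp3cb did not pass both thresholds at either border of the DCT, where 4.35% and 5.22% of all genes did. Ppp3ca was lower in the DCT than in the CTAL (-0.48, adjusted p = 0.0122). Ppp1r1a, an inhibitor of protein phosphatase that is known from the thick limb and DCT, was at 2615 ± 177 TPM in the MTAL, 2024 ± 125 TPM in the CTAL, 892 ± 65.5 TPM in the DCT and 1.10 ± 1.32 TPM in the CNT, with 326 ± 120 TPM in DTL2 and 372 ± 109 TPM in the ATL. It fell by 1.19 ± 0.37 from CTAL to DCT (limma, adjusted p = 0.0302), a call lost when any of 6 of the mice was left out (-1.16 to -1.26, adjusted p up to 0.127), with no filter (adjusted p = 0.0638) and with a pseudocount of 0.1 TPM (adjusted p = 0.533). It fell by 9.05 ± 0.41 from DCT to CNT (adjusted p = 7.37e-22).

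Of the 4 genes of the aldosterone arm, 1 rose from CTAL to DCT, where 2.01% of all genes rose, and 4 rose from DCT to CNT, where 1251 of 33793 genes rose. Hsd11b2, the enzyme that protects the mineralocorticoid receptor from glucocorticoids, was at 2.25 ± 0.621 TPM in the CTAL, 278 ± 7.78 TPM in the DCT and 3350 ± 183 TPM in the CNT. The summed principal and intercalated cell markers had the same order, CTAL below DCT below CNT, and their part in the Hsd11b2 level was not tested. Nr3c2, the receptor itself, was at 25.6 ± 1.26 TPM in the DCT and 53.5 ± 2.45 TPM in the CNT. The receptor's step from DCT to CNT (1.04 ± 0.30, limma, adjusted p = 0.0150) was lost under median ratio rescaling (0.70, adjusted p = 0.247) and quantile normalization (0.72, adjusted p = 0.317), with a pseudocount of 5 TPM (0.94), and without DCT mouse 2 or CNT mouse 1 or 3 (adjusted p of 0.0525 to 0.0619). Sgk1, a kinase induced by aldosterone, and Nedd4l, a ubiquitin ligase of the sodium channel, rose from DCT to CNT by 3.15 ± 0.57 (adjusted p = 5.15e-05) and 1.96 ± 0.16 (adjusted p = 2.01e-13).

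Of the 5 cotransporters listed that the pathway phosphorylates, 3 were called from CTAL to DCT and 2 from DCT to CNT. Slc12a3 was at 5782 ± 220 TPM in the DCT, 0.311 ± 0.102 TPM in the CTAL and 0.338 ± 0.437 TPM in the CNT. Slc12a1 was at 4116 ± 759 TPM in the MTAL, 6135 ± 844 TPM in the CTAL and 30.9 ± 36.9 TPM in the DCT. Its fall from DCT to CNT (-2.68 ± 0.70, limma, adjusted p = 0.00593) was lost without DCT mouse 1, at -1.27 (adjusted p = 0.290), and without CNT mouse 1 or 3 the adjusted p was 0.0505 or 0.0522. Slc12a4, a potassium chloride cotransporter, fell from 42.2 ± 3.85 TPM in the CTAL to 15.6 ± 1.95 TPM in the DCT (-1.39, adjusted p = 1.03e-05). Slc12a2 and Slc12a7 did not pass at either border, and Slc12a7 had means of 66.6 ± 4.57, 62.0 ± 3.34 and 51.9 ± 3.47 TPM in CTAL, DCT and CNT. The 3 basolateral channel genes are Kcnj10 and Kcnj16, which encode potassium channel subunits, and Bsnd, an accessory channel subunit. In the DCT and in the thick limb they were higher than the mean of the other tubule segments. This held for 3 of 3 in each, where 3.41% and 3.37% of all genes were higher. Bsnd had its highest mean in the ATL, at 2241 ± 899 TPM, against 339 ± 8.46 TPM in the DCT and 485 ± 65.5 TPM in the CTAL. Kcnj10 and Kcnj16 had theirs in the DCT. In the MTAL they were at 9.82 and 164 TPM, below Kcnj10 in the CNT (14.3 TPM) and Kcnj16 in PTS1 (342 TPM). With a pseudocount of 5 TPM the Kcnj10 difference for the thick limb (0.90) was short of 1. At the borders of the DCT, where 4.35% and 5.22% of all genes were called, 0 of 3 passed in limma, with an unadjusted p under 0.05 for 2 of 3 from CTAL to DCT and 1 of 3 from DCT to CNT.

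**Figure D4:**
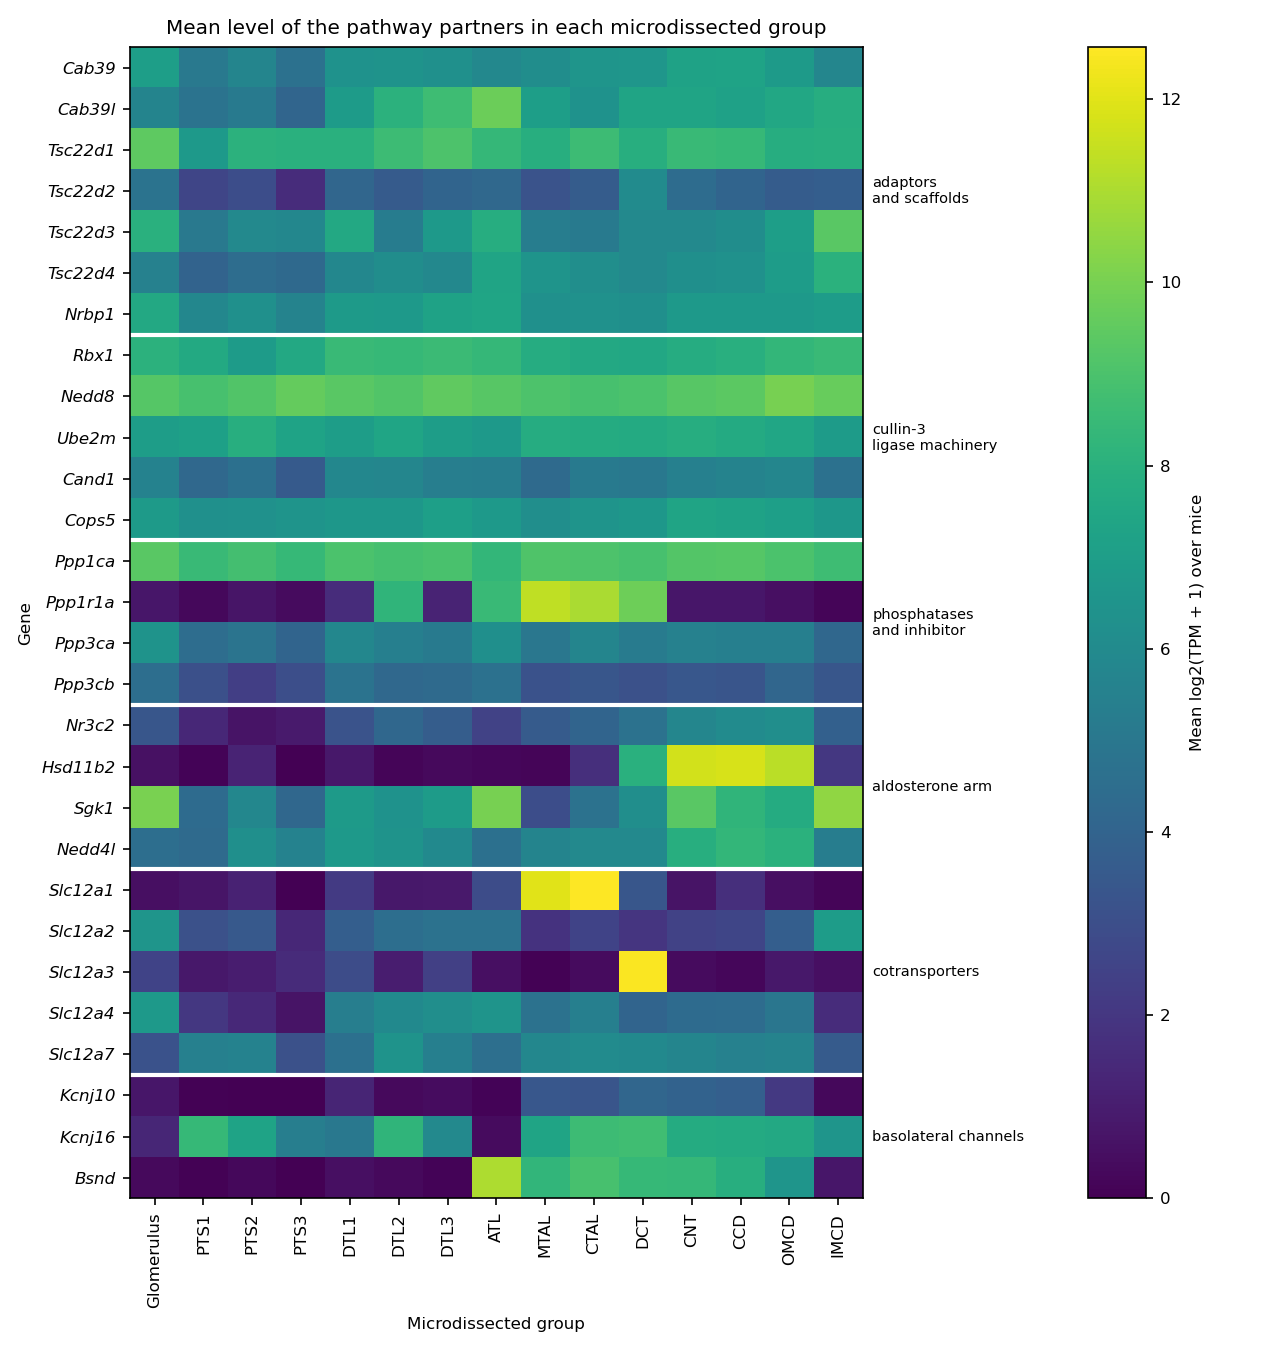
Mean level of 28 partner genes, grouped by role, as log2(TPM + 1) over the mice of each microdissected group, from dark (low) to yellow (high). Slc12a1 is bright in the MTAL and CTAL, Slc12a3 in the DCT, Ppp1r1a from the ATL to the DCT and in DTL2, and Hsd11b2 from the CNT to the OMCD with a weaker block of 278 TPM in the DCT.

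Genes whose pattern was most like that of each member were ranked by Pearson's r over the 15 group means among 11988 genes, as a description. For Wnk1 the top 3 were Batf3 (r = 0.920), Tbc1d22bos (0.918) and Klk1b9 (0.890), each highest in the DCT. Klk1b9 belongs to the kallikreins, whose near-identical copies share reads, so its value is uncertain. For Klhl3 they were Lhfpl1 (0.913), Rsph10b (0.908) and Gulo (0.899), also highest in the DCT. For Wnk4 they were Lnx1 (0.888), Cpt1b (0.872) and Wfdc15b (0.870), each highest in the CTAL. For Stk39 they were Pomgnt1 (0.944), Pak4 (0.943) and Pkm (0.943), and for Oxsr1 Crk (0.972), Gabpa (0.960) and Ap2a1 (0.954). For Klhl2 they were Syvn1 (0.893), Pgs1 (0.886) and Map2k3 (0.883), for Cul3 Atg9a (0.907), Adal (0.899) and Tm9sf2 (0.878), and for Wnk2 Tnfsf12 (0.951), Mpdz (0.916) and Afap1 (0.916). Within the pathway Wnk1 and Klhl3 were most alike (r = 0.85), Wnk1 and Wnk4 less so (0.44), and Wnk4 and Wnk2 ran opposite (-0.81). Wnk2 was at trace level and highest in the groups with the most background. Nothing is read from its correlations or from the genes most like it, and the part of the background in them was not tested. All points of a correlation share the same 15 sets of libraries.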

How the data were processed

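Tubule segments and glomeruli were microdissected; per the labels' protocols, a Direct-zol kit gave the RNA, SMARTer chemistry for ultra-low input the cDNA, and Nextera XT the libraries. The authors deposited a table of TPM, scaled to the same total in each sample. The submitters' processing notes name STAR 2.5.4a and RSEM 1.3.0, with no order or role. The genome build and annotation are not given in the sources used here. All 93 columns were used (0 sample columns were left aside), and no 2 were identical. The 6 glomerulus samples hold values to 0.1 TPM and the 87 tubule samples to 0.01 TPM. For 1 PTS2 column the name fits no title, so it entered as an unnumbered mouse of that group. The 3 samples prepared as single cells were not analysed here.

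Pieces with the same mouse number and segment were averaged as log2(TPM + 1), giving 53 units, the number of mice in the study's design text, so a number does not pair segments. Printed TPM are plain means over pieces. Genes with at least 1 TPM in at least 3 mice were kept (33793). limma 3.58.1 (R 4.3.3; lmFit, then eBayes with a trend) was fitted to all 15 groups with 1 shared spread, and differences are coded as the first segment minus the second. P-values were adjusted by Benjamini-Hochberg over all genes within each contrast, and a gene was called at an adjusted p under 0.05 together with a log2 difference of 1 or more in size (the F-test used the adjusted p alone). For the highest-group rule a gene's one-sided p was the least favourable among its 14 comparisons. Ratios of related genes were compared by exact permutation over mice, adjusted over 9 tests. Steps were tested on simulated data. For limma these had normal noise with the same spread in every group, whereas the real groups differ in spread and background. Replicates are mice, and p-values measure the spread between them. Genes named are the 9 members, the 28 partners (2 more of the list are not reported here) and the 3 genes most like each tested member with a highest group mean of at least 10 TPM, besides cell type markers and 1 gene that overlaps a member. The members, lists, rules and alternatives were chosen with earlier results of these data known. Annotation came from GENCODE M21, where 99.77% of identifiers were found, and promoters from RefSeq, where all 9 members matched. Python 3.11.15, numpy 2.4.6, pandas 2.3.3, scipy 1.17.1 and matplotlib 3.10.9 were used. Alternatives changed the pseudocount (0.1 or 5 TPM), the filter (5 TPM or none), the scaling, the averaging of pieces, the replicate model and the mice included.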

Additional observations from a re-analysis of the deposited data

Results flagged for a closer look

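In groups of 4 or 5 mice, a single mouse far from its group was looked for by Dixon's criterion at 95%. Of 45 combinations of gene and group, 3 were marked, and chance alone marks about 1 in 20. Wnk4 in CCD mouse 4 was 88.4 TPM, where the other 4 mice held 114 to 123 TPM. Wnk2 in PTS2 mouse 1 was 0.180 TPM against 0.430 to 0.445 TPM in the others. Wnk3 in CCD mouse 4 was 0.130 TPM against 0.00500 to 0.0400 TPM in the others. The Wnk2 and Wnk3 values are at trace level.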

How the results depend on the processing

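The highest-group rule called 2 members under every alternative run. The F-test called 8, except 7 with the 5 TPM filter and 9 with none. The DCT region count was 3, except 4 with a pseudocount of 0.1 TPM (Wnk2, -1.93) and under median ratio rescaling (Stk39, 1.08). The 30 neighbouring calls became 39 with a pseudocount of 0.1 TPM, 23 with 5 TPM, 28 under median ratio rescaling, 27 under quantile normalization, 29 with a replicate block, 23 without the glomerulus and DTL1 (2 fewer contrasts), and 29 to 32 when single mice were left out. For the thick limb the count was 1 instead of 2 with a pseudocount of 5 TPM (Stk39 lost), 3 with 0.1 TPM and 2 to 3 when single mice were left out. For the collecting system it was 2 instead of 4 under quantile normalization (Wnk1 and Klhl2 lost), 3 under median ratio rescaling and 6 with 0.1 TPM. The counts with 0.1 TPM include calls of Wnk2, which was at trace level and from which no difference is read. Over the 41 member results, leaving out 1 mouse gave 3 weaker values in 2173 checks, and the other alternatives gave 28 weaker and 3 reversed values in 485 checks. In a comparison of 2 groups most mice left out belong to neither group and enter only through the shared spread, so most of the 2173 checks could change little. Counted by result, 2 of the 41 were lost at least once without 1 mouse, and 15 under the other alternatives. The reversed values, all under quantile normalization, were -0.97 for Oxsr1 and -0.56 for Klhl3 from PTS3 to DTL1, and -0.07 for Wnk1 from PTS3 to DTL2. The cause was not tested. Over the 48 partner results, leaving out 1 mouse gave 12 weaker values in 2544 checks and the other alternatives 17 in 576, with 0 reversed. By result, 3 of the 48 were lost at least once without 1 mouse, and 10 under the other alternatives.

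Ratio tests of 3 DCT mice were at the limit of their design. Without single mice, the Wnk4 to Wnk1 difference between DCT and CTAL ranged from -2.75 to -2.58 and the Klhl3 to Klhl2 difference from 2.73 to 2.95, with adjusted p-values of 0.0735 or 0.122, because fewer mice raise the smallest p possible. The Stk39 to Oxsr1 difference between DCT and CTAL ranged from -0.11 to 0.01, and the Wnk4 to Wnk1 difference between CTAL and PTS2 was 0.29 with a pseudocount of 5 TPM; neither was past the threshold.

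Of 18 counts over all genes, 17 moved by more than 1.5 times with a pseudocount of 5 TPM (0.205 to 0.987 of the main count), 10 with 0.1 TPM, 7 under quantile normalization, 3 with the 5 TPM filter and 2 without ATL mice 4 and 6. Leaving out single mice moved 1, CNT to CCD without CNT mouse 3 (0.579 of the main count). With 5 TPM the CTAL to DCT count was 873 instead of 1470 and the DCT to CNT count 1055 instead of 1765. Under quantile normalization the share of called genes that were higher went from 37.0% to 63.2% for the DCT region, from 33.9% to 58.2% for the thick limb, from 80.6% to 51.3% for the collecting system, from 70.9% to 54.1% for DCT to CNT, from 94.3% to 52.3% for PTS3 to DTL1, from 90.4% to 54.9% for PTS3 to DTL2, from 10.6% to 57.5% for DTL1 to DTL2, from 63.5% to 42.4% for DTL2 to DTL3, from 19.5% to 41.1% for DTL3 to ATL, from 19.3% to 57.2% for ATL to MTAL, from 60.8% to 41.6% for CNT to CCD, from 85.7% to 43.5% for CCD to OMCD, from 18.3% to 53.9% for OMCD to IMCD and from 16.1% to 34.4% for PTS2 to PTS3. Mouse numbers were not taken to pair the samples, because the design text gives 53 mice. The deviations of same-numbered mice in different groups had a median correlation of 0.000185 over 290 pairs, with 19 above 0.1. For 968 other pairs the median was 0.000366, with 31 above 0.1. Both medians were near 0, but a larger share of the same-numbered pairs was above 0.1. These correlations therefore cannot decide whether segments shared mice. TPM give no depth, so values near 0.01 TPM cannot be weighed.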
